A study of Mus musculus with 8 samples.

Results

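Leucine, isoleucine and valine, the branched-chain amino acids, are broken down in mitochondria, and 10 genes of this route were followed in mouse left ventricle. They are Bcat2, Bckdha, Bckdhb, Dbt, Bckdk, Ppm1k, Ivd, Mccc1, Hibch and Aldh6a1, chosen by name for their function and matched by gene symbol, out of 55487 genes counted. The KO group comprised 4 C57BL/6 mice of 12 weeks, 2 male and 2 female, labelled as lacking GPR116 (the receptor ADGRF5) in myocytes only. The control group comprised 4 C57BL/6 mice of the same age and sexes, titled NLC and labelled wild-type. The driver of the deletion, and whether controls carry any part of it, are not stated in the labels. Each library is 1 animal's ventricle, with RNA of all its cell types, so fewer cells of a type and less RNA per cell cannot be told apart. Gene reads numbered 26587475 to 39615408 per KO library and 25328784 to 28347135 per control library, of which the 10 genes took 0.153% to 0.163% in KO and 0.160% to 0.176% in controls. The deepest library was that of KO replicate 1, a male, and the next deepest, KO replicate 2, had 28812571 gene reads.

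The route has a shared start and separate ends. A transaminase, Bcat2, turns each amino acid into its keto acid. The branched-chain ketoacid dehydrogenase complex then removes a carboxyl group in the step that commits the carbon to breakdown. A kinase, Bckdk, phosphorylates the alpha subunit of the complex and shuts it off, and a phosphatase, Ppm1k, reverses this. Beyond the complex leucine, isoleucine and valine follow their own enzymes. Heart muscle is among the tissues that carry out the whole route, and impaired breakdown of these amino acids is a known feature of failing hearts.

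None of the 10 genes passed the test for KO against control. The genes of the core of the complex, Dbt, and of the beta subunit of its decarboxylase, Bckdhb, were lower in every KO library than in any control. The transaminase gene Bcat2, at the entry of the route, had the only positive log2 fold change. By edgeR 0 of 10 passed at an adjusted p of 0.05 over all 14695 genes tested, where 15 genes (0.102%) passed, and DESeq2 (1.01% of all genes) and limma voom also called 0. At an unadjusted edgeR p under 0.05 there were 3, namely 1 higher and 2 lower, where 11.9% of all genes had one, 5.77% higher and 6.18% lower. Of the 10 log2 fold changes 9 were under 0, as were 51.0% of all those tested, and their median was -0.090 against -0.005 over all genes.

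**Figure D1:**
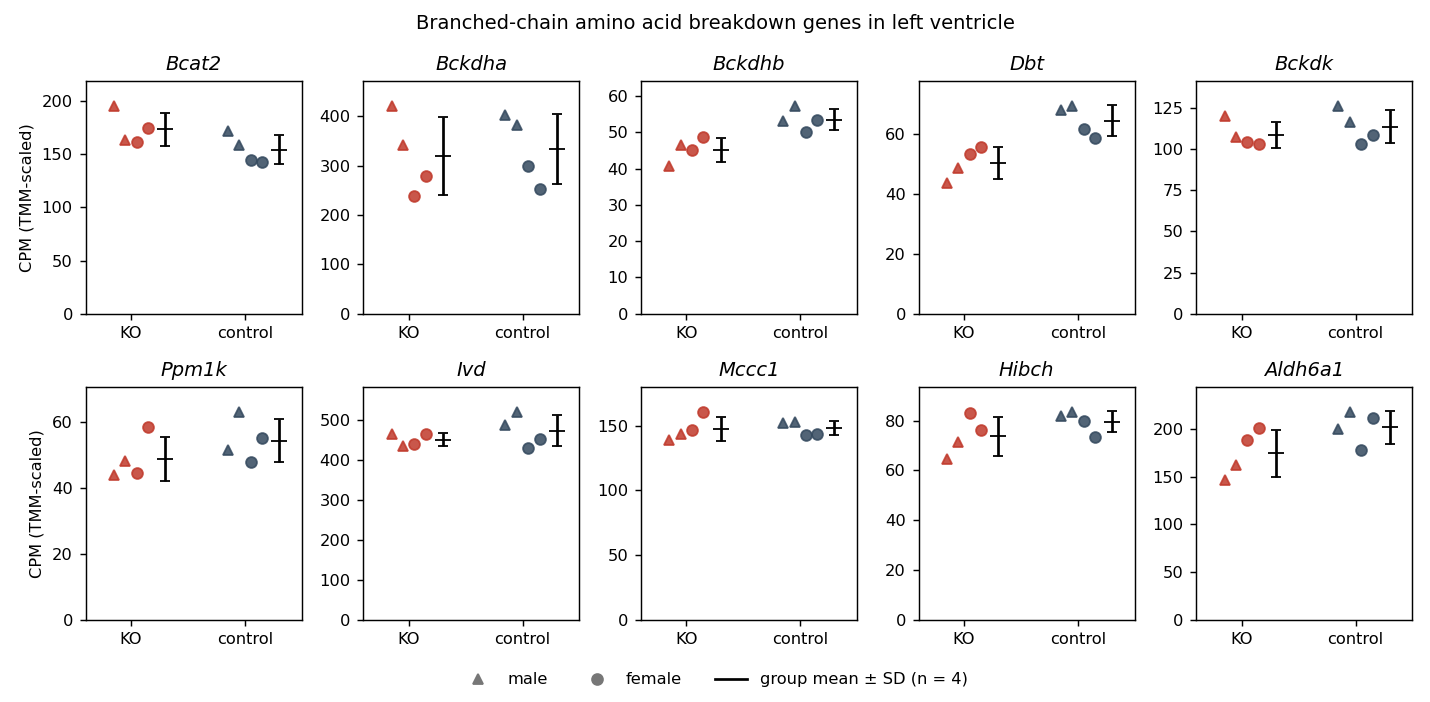
Normalised level of each of the 10 genes in every library, in CPM (read counts scaled to a common library size) on an axis from 0, with KO on the left and control on the right. Triangles are males, circles females, and the bars show the mean and SD of 4 libraries. Dbt and Bckdhb are lower in all 4 KO libraries than in the 4 controls, and Bckdha is higher in every male than in any female.

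Sequence upstream of the start sites is shown for 3 genes, the entry enzyme gene Bcat2, the complex subunit gene Bckdhb and the valine enzyme gene Aldh6a1. Each is the 250 bases before a RefSeq start in GRCm38.p6, on the strand of the gene. For each of these 3 genes 2 starts were listed, and the one nearest the annotated gene start is shown. Capitals mark the motifs CCAAT (or its reverse complement ATTGG) and CCGCCC (or GGGCGG).
Bcat2, chr7:45569903-45570152, + strand: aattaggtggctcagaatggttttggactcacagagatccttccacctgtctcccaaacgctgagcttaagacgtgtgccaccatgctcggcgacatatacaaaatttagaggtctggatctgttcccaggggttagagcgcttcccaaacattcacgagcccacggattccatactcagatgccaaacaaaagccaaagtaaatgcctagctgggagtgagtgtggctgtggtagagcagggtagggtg
Bckdhb, chr9:83924887-83925136, + strand: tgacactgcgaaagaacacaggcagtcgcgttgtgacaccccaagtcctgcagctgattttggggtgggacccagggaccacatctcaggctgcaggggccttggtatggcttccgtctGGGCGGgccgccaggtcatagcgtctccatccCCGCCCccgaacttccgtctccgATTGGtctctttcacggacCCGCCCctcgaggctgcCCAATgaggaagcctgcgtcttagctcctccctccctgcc
Aldh6a1, chr12:84451025-84451274, - strand: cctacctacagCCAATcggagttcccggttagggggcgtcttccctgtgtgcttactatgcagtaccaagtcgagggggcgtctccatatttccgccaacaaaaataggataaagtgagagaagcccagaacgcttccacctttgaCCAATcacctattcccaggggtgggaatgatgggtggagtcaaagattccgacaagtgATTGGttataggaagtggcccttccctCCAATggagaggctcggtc
The Bcat2 stretch held neither motif, nor did that of Bckdha, which is not printed. That of Bckdhb had 2 CCAAT and 3 CCGCCC matches, and that of Aldh6a1 had 4 CCAAT matches. No link between these motifs and transcript levels was tested. RefSeq start sites were at hand for 9 of the 10 genes, not for Dbt. Of these 9 stretches 6 held CCAAT on either strand and 4 held CCGCCC, against 33.8% and 32.7% of the 32851 stretches of the same length in the table. The 9 are those nearest the annotated gene start, while the 32851 include further starts of the same gene. The 2 motifs did not overlap in the 3 stretches printed. A match describes letters in the window and not a bound site.

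Bcat2 encodes the mitochondrial branched-chain aminotransferase, which starts the route in muscle. It stood at 195, 163, 162 and 174 CPM in KO replicates 1 to 4, and at 171, 159, 145 and 143 CPM in control replicates 1 to 4. The ranges overlapped, because 2 KO libraries lay below control replicate 1. The means were 174 ± 15.5 CPM in KO and 154 ± 13.5 CPM in controls (SD, n = 4 each). Its fold change on the log2 scale, 0.17 (SE 0.0759, edgeR adjusted p = 0.411), stayed positive under all 18 alternative settings. Bcat2 (ENSMUSG00000030826) lies at 45570153 to 45589711 on chromosome 7 of GRCm38.

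Dbt encodes the dihydrolipoyl transacylase that forms the core of the dehydrogenase complex. Its level was 43.7, 48.8, 53.6 and 55.6 CPM in KO replicates 1 to 4, against 68.2, 69.5, 61.9 and 58.9 CPM in control replicates 1 to 4. The groups did not overlap, and the gap was wide between the males (replicates 1 and 2) and narrow between the females (replicates 3 and 4). Mean levels were 50.4 ± 5.34 CPM in KO and 64.6 ± 5.07 CPM in controls (SD, n = 4 each), which is 22.0% lower in KO. On the log2 scale KO over control came to -0.36 (SE 0.0915, 95% interval -0.56 to -0.16, edgeR adjusted p = 0.218), rank 179 of the 14695 genes by p. DESeq2 gave an adjusted p of 0.0520, and Dbt passed only with no low count filter (0.00532) or without control replicates 3 and 4 together (-0.58, 0.0494), over a range of 0.00532 to 0.564 under 18 alternatives. Without those female controls the genotype term compares KO with control in males only, where the value of Dbt, given below, was also -0.58. Dbt (ENSMUSG00000000340) lies at 116513070 to 116549981 on chromosome 3.

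Bckdhb encodes the beta subunit of the decarboxylase component of the same complex. It was measured at 40.7, 46.5, 45.1 and 48.7 CPM in KO replicates 1 to 4 and at 53.2, 57.3, 50.2 and 53.5 CPM in control replicates 1 to 4. The highest KO library lay just below the lowest control. Means of 45.2 ± 3.36 CPM in KO and 53.5 ± 2.92 CPM in controls (SD, n = 4 each) gave a log2 fold change of -0.24 (SE 0.0757, 95% interval -0.41 to -0.08, edgeR adjusted p = 0.309). Dbt and Bckdhb were the only 2 of the 10 genes whose groups did not overlap, and 3.03% of all tested genes were separated in this direction. Bckdhb (ENSMUSG00000032263) spans 199.1 kb at 83925145 to 84124240 on chromosome 9, of which 1.805 kb is exon.

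Long genes leaned lower in these KO libraries as a class, and their values stand beside those of Bckdhb and Dbt. Protein-coding genes spanning 100 kb or more had a median log2 fold change of -0.11, with 75.3% of 1901 under 0. Those of 30 to 100 kb, the class of Dbt at 36.9 kb, had a median of -0.055, with 64.2% of 3884 under 0. Genes shorter than 10 kb, such as Bckdk at 6.14 kb, had a median of 0.085. The part of gene span in the values of Bckdhb and Dbt was not tested.

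Bckdha, whose protein is the alpha subunit that the kinase phosphorylates, varied with sex more than with genotype. It stood at 421, 341, 239 and 279.8 CPM in KO replicates 1 to 4 and at 402, 383, 299 and 252 CPM in control replicates 1 to 4. The KO and control ranges overlapped almost entirely, with a KO over control log2 fold change of -0.066 (SE 0.0933, edgeR adjusted p = 0.774). Across both genotypes the 4 males averaged 387 ± 34.2 CPM and the 4 females 267 ± 27.2 CPM (SD), with every male above every female, as for 3.84% of all tested genes. All 4 male libraries carry lower library numbers than the 4 female ones, so sex and any effect of that order cannot be told apart. Male over female, this came to 0.53 on the log2 scale (SE 0.0935, edgeR adjusted p = 0.0568), just outside the threshold. It passed by DESeq2 (1.81e-05), with no low count filter (2.22e-07) and without control replicate 3 (0.0245), and the adjusted p ranged from 2.22e-07 to 0.277 over 11 alternatives. Bckdha lies on chromosome 7 at 25629946 to 25658981, and its exons share 1171 bases with B3gnt8 on the opposite strand, which averaged 4.07 CPM in KO and 3.83 CPM in controls.

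Bckdk and Ppm1k set the activity of the complex in opposite ways, and neither transcript differed beyond the spread. The kinase gene Bckdk had 120.0, 107, 104 and 103 CPM in KO replicates 1 to 4 and 126, 117, 103 and 109 CPM in control replicates 1 to 4. Its log2 fold change was -0.063 (SE 0.0647, 95% interval -0.21 to 0.08). The phosphatase gene Ppm1k had 43.9, 48.3, 44.6 and 58.6 CPM in KO replicates 1 to 4 and 51.5, 63.0, 48.0 and 55.1 CPM in control replicates 1 to 4. KO replicate 4 had the second highest value of all 8 libraries, and the log2 fold change was -0.16 (SE 0.113, 95% interval -0.41 to 0.10), but -0.066 without control replicate 2 and -0.27 without KO replicate 4. Bckdk lies at 127904082 to 127910221 on chromosome 7 and Ppm1k at 57506502 to 57535468 on chromosome 6. Their edgeR adjusted p-values were 0.684 for Bckdk and 0.568 for Ppm1k.

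Ratios within a library need no scaling, and 4 were compared between the groups with an exact permutation test, two-sided, whose 70 assignments of the libraries allow no p under 0.0286. The ratio of Bckdk to Ppm1k reads was 2.73, 2.23, 2.34 and 1.76 in KO replicates 1 to 4 and 2.46, 1.85, 2.16 and 1.97 in control replicates 1 to 4. These overlapped (log2 difference 0.094, exact permutation p = 0.600). The ratio of Dbt to Bckdha was 0.104, 0.143, 0.225 and 0.199 in KO replicates 1 to 4 and 0.170, 0.182, 0.207 and 0.234 in control replicates 1 to 4 (log2 difference -0.29, exact permutation p = 0.371). The difference was -0.082 without KO replicate 1 and -0.45 without KO replicate 3. The ratio of Bckdhb to Bckdha gave a log2 difference of -0.18 (exact permutation p = 0.571). Ratios of both genes to Bckdha were lower in every male than in any female, at 0.150 ± 0.0345 in males and 0.216 ± 0.0160 in females for Dbt, and 0.129 ± 0.0226 in males and 0.186 ± 0.0196 in females for Bckdhb (SD, n = 4 each). The assignments disregard sex, so this sex difference is part of the spread against which KO and control were compared. As for Bckdha, sex and any effect of library order cannot be told apart in these ratios. Within males the KO minus control difference was -0.53 for Dbt to Bckdha and -0.29 for Bckdhb to Bckdha, and within females -0.056 and -0.057, with no test at 2 libraries a group. That of Mccc2 to Mccc1, the partner subunits of a leucine enzyme described next, was 0.415 ± 0.0148 in KO and 0.456 ± 0.0270 in controls (SD, n = 4 each), with a log2 difference of -0.13 (exact permutation p = 0.0571). Adjusted over the 4 ratios, the p-values were 0.228 to 0.600.

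**Figure D2:**
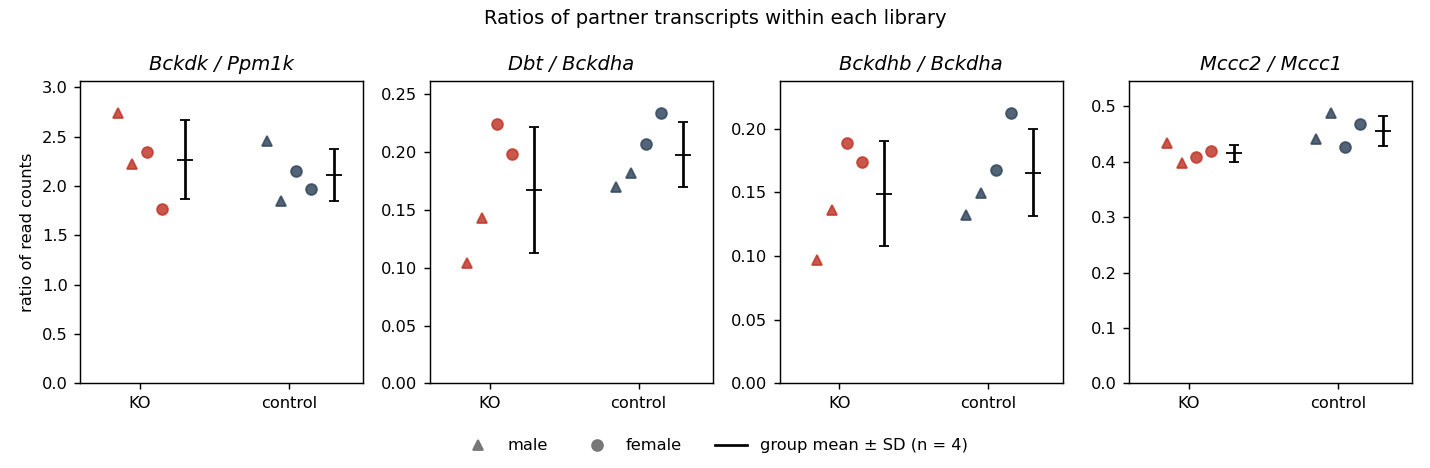
Ratio of read counts of 2 partner transcripts in each library on axes from 0, KO on the left and control on the right, with triangles for males, circles for females and bars for the mean and SD of 4 libraries. The KO and control ranges overlap in all 4 panels, and the Dbt to Bckdha and Bckdhb to Bckdha ratios are lower in every male than in any female.

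In the leucine branch the 2 genes followed were nearly level. Ivd encodes isovaleryl-CoA dehydrogenase, the next leucine enzyme after the complex. It ran at 464, 436, 439 and 466 CPM in KO replicates 1 to 4 and at 489, 520.3, 432 and 453 CPM in control replicates 1 to 4, so the KO libraries lay inside the control range. The log2 fold change of Ivd, -0.065, was smaller than its SE (0.0721, edgeR adjusted p = 0.708). Mccc1, the biotin-carrying subunit gene of methylcrotonyl-CoA carboxylase, averaged 147 ± 9.20 CPM in KO and 148 ± 5.42 CPM in controls (SD, n = 4 each). Its log2 fold change of -0.005 turned positive without any 1 of the 4 male libraries, up to 0.024 without KO replicate 1. Ivd lies at 118861954 to 118882909 on chromosome 2 and Mccc1 at 35959312 to 36000678 on chromosome 3.

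Hibch and Aldh6a1 belong to the valine branch. Hibch, 3-hydroxyisobutyryl-CoA hydrolase, had 64.5, 71.5, 83.0 and 76.5 CPM in KO replicates 1 to 4 and 81.7, 83.5, 79.9 and 73.6 CPM in control replicates 1 to 4. Aldh6a1, methylmalonate semialdehyde dehydrogenase, had 147, 162, 188 and 201 CPM in KO replicates 1 to 4 and 200.3, 218, 179 and 212 CPM in control replicates 1 to 4. For both genes the 2 male KO libraries were the lowest of the 8, whereas the female libraries intermingled. The log2 fold changes were -0.11 (SE 0.0824, edgeR adjusted p = 0.567, -0.050 without KO replicate 1 and -0.17 without control replicate 4) for Hibch and -0.22 (SE 0.102, edgeR adjusted p = 0.423) for Aldh6a1. Hibch lies at 52844929 to 52920986 on chromosome 1 and Aldh6a1 at 84430717 to 84451004 on chromosome 12. Aldh6a1 shares 1078 exon bases with Bbof1 on the opposite strand, which averaged 2.27 CPM in KO and 2.22 CPM in controls.

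**Figure D3:**
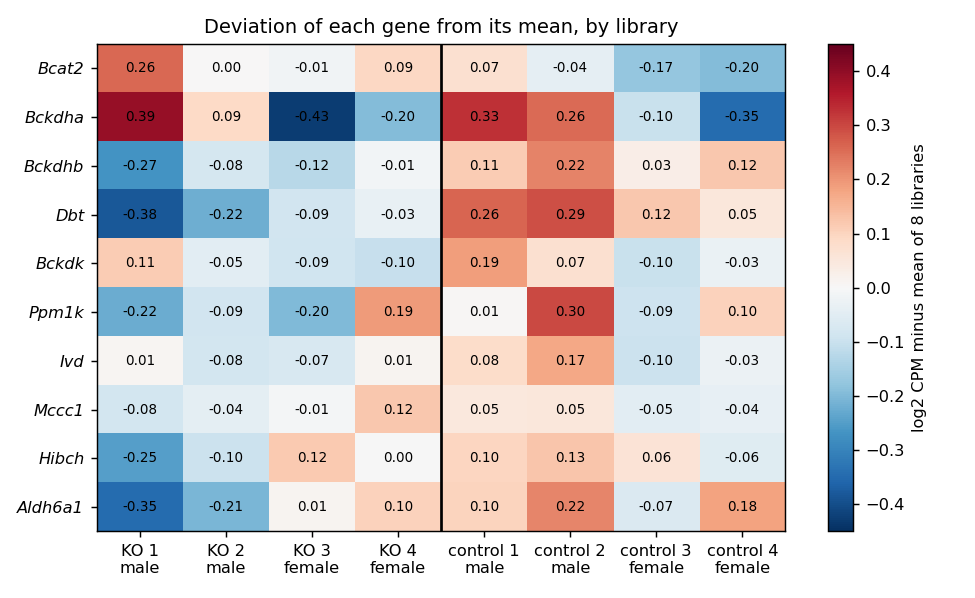
Log2 CPM of each of the 10 genes in each library after subtracting the gene's mean over the 8 libraries, with KO columns left of the line, control columns right of it, and the sex given under each. KO replicate 1, the library with the most gene reads, shows both the lowest value of Dbt, -0.38, and the highest of Bckdha, 0.39.

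Per length, the alpha subunit gene was the most abundant of the 10 and the phosphatase gene the least. Bckdha averaged 172 ± 36.8 CPM per kb of exon over the 8 libraries (SD), followed by Ivd at 84.0 ± 5.45 and Bcat2 at 42.1 ± 4.35 CPM per kb. Aldh6a1, Bckdk and Bckdhb came next at 32.6, 30.1 and 27.4 CPM per kb, and then Dbt at 17.2, Mccc1 at 13.5, Hibch at 12.7 and Ppm1k at 8.57 CPM per kb. The ranges of neighbours overlapped from Bcat2 down to Bckdhb and again from Dbt to Hibch. They did not overlap between Bckdha and Ivd, Ivd and Bcat2, Bckdhb and Dbt, or Hibch and Ppm1k. Length is the union of all annotated exons, which lowers the value of genes with rarely used exons.

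A further 27 genes of the route, listed for their function, were measured, and none passed by edgeR or by DESeq2. At an unadjusted edgeR p under 0.05 there were 5 of 27, namely 1 higher and 4 lower, where 5.77% of all genes were higher and 6.18% lower. Among 6 transporters 4 log2 fold changes were above 0, and 2 were under it, as were 51.0% of all genes. Slc43a2, a carrier of large neutral amino acids, stood at 29.2 ± 3.55 CPM in KO and 24.4 ± 2.44 CPM in controls (log2 fold change 0.25, SE 0.0705, edgeR adjusted p = 0.263). Its KO and control ranges overlapped, and within each sex both KO libraries lay above both controls. Of the 14695 tested genes 3684 were so separated in males and 2518 in females. The subunit gene Dld, shared by this complex and 2 related ones, stood at -0.17 (SE 0.1001) on the log2 scale.

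Of 4 further enzymes of the isoleucine branch 3 had log2 fold changes under 0, with a median of -0.12, as had 4 of 6 in the propionyl-CoA steps, with a median of -0.11. Acadsb, the short/branched-chain acyl-CoA dehydrogenase that acts first in that branch, averaged 118 ± 9.96 CPM in KO and 141 ± 15.3 CPM in controls (log2 fold change -0.26, SE 0.0950, edgeR adjusted p = 0.350). Acat1, the thiolase that ends it, had 529.7, 525, 543 and 582 CPM in KO replicates 1 to 4 and 656, 629.8, 583 and 609 CPM in control replicates 1 to 4. The 4 KO values of Acat1 lay below the 4 controls, the highest by a narrow margin (log2 fold change -0.18, SE 0.0710, edgeR adjusted p = 0.361). Of all tested genes 3.03% were separated in this direction. Echs1, a hydratase, and Hsd17b10, a dehydrogenase, were at -0.055 (SE 0.0734) and 0.066 (SE 0.0668). In the other branches the smallest p belonged to Mccc2 for leucine (-0.14, SE 0.0801) and Hibadh for valine (-0.16, SE 0.0727). Pccb, a subunit of propionyl-CoA carboxylase, into which the isoleucine and valine routes feed, stood at -0.19 (SE 0.0691, edgeR adjusted p = 0.350). Over the 17 further enzymes of the route, with Dld and the entry transaminase Bcat1 (0.31, SE 0.234) among them, 11 log2 fold changes were under 0, with a median of -0.11, where 51.0% of all genes were under 0. Within males 13 of the 17 were under 0 (48.6% of all genes), with a median of -0.16. Within females 7 of the 17 were under 0 (52.7% of all genes), with a median of 0.015. Acadsb stood at -0.46 in males and -0.054 in females, and Dld at -0.39 and 0.043.

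Of 4 transcription regulators linked to the route or to mitochondrial oxidation, Ppara, a nuclear receptor that drives fatty acid oxidation genes, had the lowest value. It averaged 21.4 ± 5.44 CPM in KO and 27.7 ± 4.61 CPM in controls (log2 fold change -0.40, SE 0.131, edgeR adjusted p = 0.338). It passed with no low count filter alone (0.00806), over a range of 0.00806 to 0.674. Klf15, which activates genes of branched-chain amino acid breakdown in mouse heart, stood at 72.6 ± 8.26 CPM in KO and 68.1 ± 5.66 CPM in controls (SD, n = 4 each, log2 fold change 0.093, SE 0.0892).

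**Figure D4:**
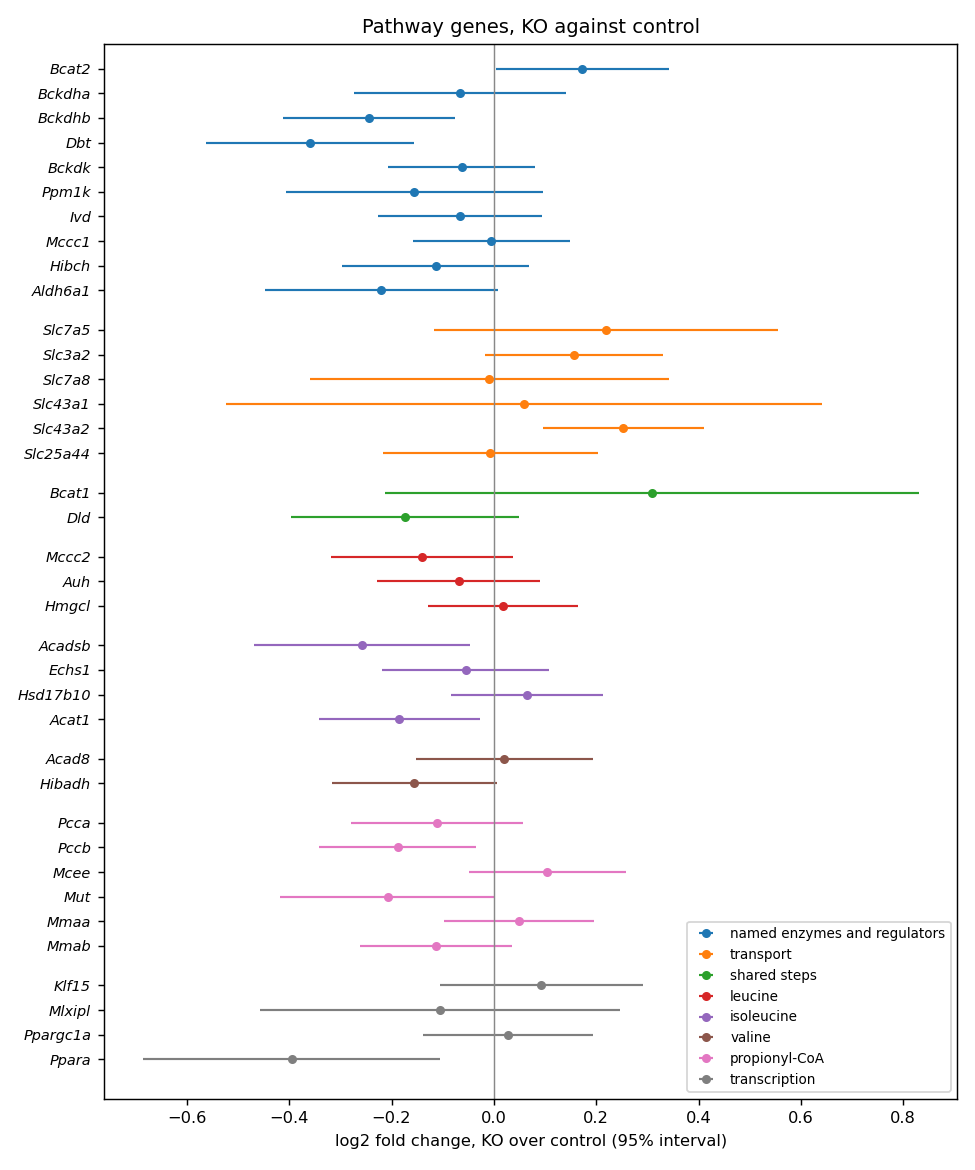
Log2 fold change of KO over control, with its 95% interval, for the 10 genes at the top and the 27 further genes of the route below them, coloured by step. The intervals of Dbt, Bckdhb, Acadsb, Acat1, Pccb and Ppara lie below 0 and those of Bcat2 and Slc43a2 above it, before any adjustment for the number of genes tested.

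The pyruvate and oxoglutarate dehydrogenase complexes are built on the same plan as the branched-chain complex and share Dld with it. All 13 genes listed for their subunits, kinases and phosphatases had log2 fold changes under 0, as had 51.0% of all tested genes. Their median was -0.14 against -0.090 for the 10 branched-chain genes, and 0 passed by edgeR. Within males 12 of the 13 were under 0 (48.6% of all genes), with a median of -0.24. At an unadjusted edgeR p under 0.05, 9 of the 13 were lower in males, where 8.45% of all genes were so. Within females 6 of the 13 were under 0 (52.7% of all genes), with a median of 0.015, and 0 had such a p. Pdpr, the regulatory subunit of a pyruvate dehydrogenase phosphatase, was at -0.43 (SE 0.139) and Pdk1, a pyruvate dehydrogenase kinase, at -0.28 (SE 0.0900), both with an edgeR adjusted p of 0.326. They were the 2 of 13 lower at an unadjusted edgeR p under 0.05, where 6.18% of all genes were so. Pdpr passed with no low count filter (0.000317) and without control replicates 3 and 4 (0.0436), over a range of 0.000317 to 0.675. Leaving out those female controls compares KO with control in males only. No difference between these genes and the branched-chain genes was tested.

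Within males the KO libraries had the lower values for most of the 10 genes, and within females the values were mixed. In males 9 of the 10 log2 fold changes were under 0 (48.6% of all genes), with a median of -0.22. Both male KO libraries lay below both male controls for 7 genes, namely Dbt, Bckdhb, Ppm1k, Ivd, Mccc1, Hibch and Aldh6a1, and 25.9% of all tested genes were so separated. In females 5 of 10 were under 0 (52.7% of all genes), with a median of -0.001. Both female KO libraries lay below both controls for Dbt and Bckdhb, and above them for Bcat2 and Mccc1, where 17.2% and 17.1% of all tested genes were so separated. Mccc1 was separated in opposite directions in the 2 sexes. It averaged 141 CPM in KO and 153 CPM in control males, and 153 CPM in KO and 143 CPM in control females, a male minus female difference of -0.21 on the log2 scale (SE 0.122, edgeR adjusted p = 0.675).

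Of the 10 genes 0 passed within males by edgeR (0.0408% of all tested genes did), with 4 lower at an unadjusted p under 0.05 against 8.45% of all genes. Dbt had a male log2 fold change of -0.58 (SE 0.0880, edgeR adjusted p = 0.0897) and Aldh6a1 of -0.44 (SE 0.111, edgeR adjusted p = 0.175). DESeq2 called both in males, Dbt at an adjusted p of 0.000757 and Aldh6a1 at 0.0251, where it called 2.70% of the 11561 genes given an adjusted p. Dbt also passed there without control replicate 3 (0.0495), without control replicate 4 (0.0470) or with no low count filter (0.000141), over a range of 0.000141 to 0.656, and Aldh6a1 with no low count filter (0.00876), over a range of 0.00876 to 0.705. Within females 0 passed by edgeR (0% of all genes) or DESeq2 (0.116%), and 0 of the 10 had an unadjusted edgeR p under 0.05 (5.12% of all genes), where the log2 fold changes of Dbt and Aldh6a1 were -0.14 (SE 0.0878) and -0.004 (SE 0.111). In males both KO libraries carry lower library numbers than both controls, so any effect of that order and the genotype cannot be told apart there. The summed level of 5 erythroid markers was 313.5 and 284.6 CPM in KO males and 199.9 and 143.5 CPM in control males. It was 58.8 and 175 CPM in KO females and 233 and 59.6 CPM in control females. All 5 had log2 fold changes above 0 in males (median 0.91) and under 0 in females (median -0.45), and their part in the values of the 10 genes was not tested. Protein-coding genes of 30 to 100 kb had a male median of -0.073 and those of 100 kb or more one of -0.15.

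The sex difference itself was tested as the male minus the female log2 fold change. It passed for 0 of the 10 genes by edgeR (0% of all genes) or DESeq2 (0.116% of the 12985 genes given an adjusted p). At an unadjusted edgeR p under 0.05 there were 3, all below 0, where 3.16% of all genes were so. The 3 were Dbt at -0.43 (SE 0.124), Aldh6a1 at -0.43 (SE 0.156) and Hibch at -0.34 (SE 0.128), each with an edgeR adjusted p of 0.648. A different response of males and females is therefore not shown for any of the 10. Between males and females as such, 0 of the 10 passed by edgeR (0.299% of all genes did) and 1, Bckdha, by DESeq2 (1.79% of the 12985 genes given an adjusted p). At an unadjusted edgeR p under 0.05 there were 2, Bckdha and Bckdk, both higher in males, where 6.79% of all genes were so. Bckdk averaged 118 ± 7.90 CPM in males and 105 ± 2.50 CPM in females (SD, n = 4 each, log2 fold change 0.16, SE 0.0647, edgeR adjusted p = 0.335). Every male library carries a lower library number than any female one, so sex and any effect of that order cannot be told apart here.

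**Figure D5:**
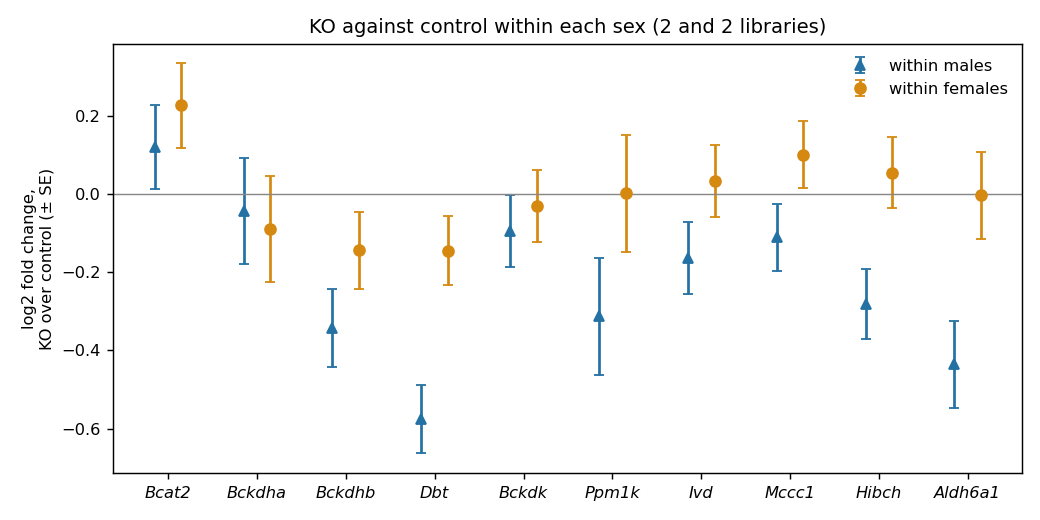
Log2 fold change of KO over control with its standard error for each of the 10 genes, within males (triangles, 2 KO and 2 control libraries) and within females (circles, 2 and 2). The male values reach -0.58 for Dbt, while the female values lie between -0.14 and 0.23.

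The gene whose log2 CPM most resembled the mean of the 10 over the 8 libraries, among 9930 genes of at least 5 CPM, was As3mt, an arsenite methyltransferase (Pearson r = 0.978). Glud1, glutamate dehydrogenase, followed at 0.971, then Phyh, which takes part in peroxisomal alpha-oxidation, at 0.965, and Pdp2, a pyruvate dehydrogenase phosphatase, and Map3k5, a stress-activated kinase, both at 0.957. For Dbt alone the genes of most similar pattern included Rab28 (r = 0.981), Pkia (0.979), Ubr3 (0.977) and Kifap3 (0.970). None of these 9 genes passed for KO against control by edgeR. The same 8 libraries, with their depth and composition, underlie every value, and r is given as a description.

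The libraries held ventricular muscle throughout and differed in other transcripts. The 8 ventricular cardiomyocyte markers were all detected, with summed levels of 78430 to 90830 CPM in KO and 74950 to 87890 CPM in controls. The summed level of 7 endothelial markers was 741 to 808 CPM in KO and 790.0 to 946 CPM in controls, with 6 of 7 log2 fold changes under 0, 4 of them lower at an unadjusted edgeR p under 0.05 (6.18% of all genes) and 0 passing. That of 8 interferon response genes was 101 to 109.6 CPM in KO and 115 to 242 CPM in controls, highest in control replicate 3, with 4 of 8 lower at an unadjusted p under 0.05 and 0 passing. The part of these transcripts in the values of the 10 genes was not tested. Control replicate 4 had the most of the atrial transcript Myl7, 983 CPM, and of the brown fat transcript Ucp1, 18.9 CPM. The other libraries had Myl7 at 0.264 to 183 CPM, with 183 CPM in KO replicate 3 and 157 CPM in control replicate 2. They had Ucp1 at 0 to 0.150 CPM. The summed level of 6 adipocyte markers, Ucp1 among them, was 453 CPM in control replicate 4. It was 384 to 507 CPM in KO and 432 to 526.5 CPM in controls, so that list was not raised there as a whole. Without control replicate 4 the log2 fold change of Dbt was -0.42 and that of Bckdhb -0.25, and without control replicate 3 they were -0.39 and -0.28. Adgrf5 itself was at 224 ± 15.7 CPM in KO and 233 ± 17.4 CPM in controls (SD, n = 4 each), a level in whole ventricle that does not check a deletion in myocytes alone, so every direction given here rests on the labels.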

How the data were processed

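RNA of whole left ventricle was sequenced from stranded mRNA libraries, per the labels' protocols. Each deposited file covers 1 library and gives whole-number read counts, not normalized, for 55487 Ensembl genes and 5 summary entries. STAR, HTSeq and DESeq2 with GRCm38 are named in the submitters' processing notes, without version or strand setting. Overlapping genes on opposite strands may therefore not be separated. Of all tallied reads 16.8% to 20.3% were multiply mapped, 3.07% to 4.08% outside genes and 1.26% to 1.38% ambiguous, and these entered neither library sizes nor tests.

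Symbols and positions came from GENCODE M21 (GRCm38). Genes were filtered with filterByExpr, scaled by TMM and tested with edgeR 4.0.16 in R 4.3.3 (quasi-likelihood, sex as an additive term, Benjamini-Hochberg over 14695 genes, threshold 0.05). Contrasts within each sex, and the sex difference of KO against control, used 1 mean per sex and genotype. Males against females came from the additive fit. The fits were also run on simulated counts. The planted changes were larger than any of the 10 genes showed for KO against control, so recovery of changes of that size was not tested. CPM uses TMM-scaled library sizes, and log2 CPM has a prior count of 2. Each library is 1 animal, per the series' design text, and p-values measure the spread between these animals. Alternatives were DESeq2 1.42.0, limma 3.58.1 (voom), other scalings and filters, other covariates, and omitted libraries. All 10 genes were named, with every gene of a further list at an unadjusted p under 0.05 (in the lists of the route, otherwise the gene of smallest p). The 5 genes most like the mean of the 10, and the 5 most like Dbt, were named too, of which 1 is not reported here. Klf15, Bcat1, Echs1, Hsd17b10, B3gnt8, Bbof1 and the marker genes were named outside this rule, after their values were seen. The members, lists, tests and alternatives were chosen with earlier results of these data known. Replicate numbers were not taken to pair animals.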

Additional observations from a re-analysis of the deposited data

How the results depend on the processing

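The direction of 9 of the 10 genes held in all 18 alternatives, and Mccc1 alone turned, with log2 fold changes of -0.053 to 0.024 when each library was left out. For KO against control 0 of the 10 genes passed, but 1 (Dbt) with no low count filter and 1 (Dbt) without control replicates 3 and 4, and 0 when each library was left out. Of the 27 further genes 0 passed, but 1 (Ppara) with no low count filter. The median log2 fold change of the 10 was -0.090, and -0.23 without control replicates 3 and 4, which leaves control males only and so compares the genotypes within males. Within males 0 passed, but 2 by DESeq2, 2 with no low count filter, and 0 to 1 with each library left out. Between males and females 0 passed, but 1 by DESeq2, 1 with no low count filter, and 0 to 1 with each library left out.

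The log2 difference of the Bckdhb to Bckdha ratio turned to 0.036 without control replicates 3 and 4, and ran from -0.30 to 0.017 with each library left out, while that of Bckdk to Ppm1k ran from -0.0023 to 0.21. Both turned without KO replicate 1. That of Dbt to Bckdha ran from -0.45 to -0.082. With each library left out, the log2 fold change of Ppm1k ran from -0.27 to -0.066, of Hibch from -0.17 to -0.050, of Bckdha from -0.14 to -0.010, of Ivd from -0.10 to -0.030 and of Bckdk from -0.090 to -0.028. Over all genes the KO against control count of 15 became 148 by DESeq2, 621 with no low count filter, 44 without control replicates 3 and 4, 6 with no sex term, and 0 to 50 with each library left out. The count within males of 6 became 312 by DESeq2, 1007 with no low count filter and 0 to 59 with each library left out. That within females of 0 became 17, 277 and 0 to 81, that of the sex difference of 0 became 15, 243 and 0 to 8, and that of males against females of 44 became 232, 742 and 16 to 176. With the replicate block the KO against control count was 0, and Dbt stood at -0.36 (edgeR adjusted p = 0.331). Deviations of same-numbered libraries from their group means correlated at -0.21 to 0.25. Such libraries share their sex, so these correlations include any sex effect. Centred on the mean of each sex and genotype, they were 0.037 for replicates 1 and 2 and -0.31 for replicates 3 and 4. The numbers were not used as pairs. The cause of these shifts was not tested. In each sex 2 libraries per genotype limit what can be called.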

Other observations

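The 10 genes did not all follow the same pattern over the 8 libraries. Dbt and Bckdhb, both subunit genes of the complex, varied together (Pearson r of log2 CPM 0.930), and Aldh6a1 varied with them (0.837 with Dbt and 0.870 with Bckdhb), although the 3 genes lie on chromosomes 3, 9 and 12. Hibch (0.827 with Dbt and 0.663 with Bckdhb) and Ppm1k (0.654 with Dbt and 0.809 with Bckdhb) also varied with them. Ivd and Mccc1 did so less closely, at 0.484 to 0.54. Bckdha, which encodes the partner subunit of Bckdhb, did not follow it (-0.025) and varied instead with the kinase gene Bckdk (0.826). Bcat2 ran against Dbt (-0.526) and Bckdhb (-0.613). These values describe 8 libraries that share depth, sex and genotype differences, and no p-value is attached.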
